A study of Mus musculus with 9 samples.

Results

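The B7 family costimulatory ligands examined here are the 5 genes Cd80, Cd86, Cd274, Pdcd1lg2 and Icosl, of 21631 protein-coding genes with a position on chromosomes 1 to 19 and X. They were taken by name, and the data for each are the ATAC-seq peaks that lie in its gene body or within 10 kb on either side, by RefSeq positions on GRCm38. Peaks that overlapped by at least 1 bp, in 1 list or between lists, were joined to a region, and a list calls a region when 1 of its peaks lies there. The 5 windows held 21 of the 36843 regions in all.

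ATAC-seq maps open chromatin by letting the Tn5 transposase insert sequencing adapters into accessible DNA, and it was made here from peritoneal macrophages purified by fluorescence-activated cell sorting from mice. The 9 samples form 3 groups of 3. Tissue-converted macrophages were from mice that received 2 ml of thioglycollate, which irritates the peritoneum and recruits monocytes, and then ate tamoxifen for 8 weeks without a break. Monocyte-derived macrophages were taken 4 days after 2 ml of thioglycollate. For tissue-resident macrophages the labels name no treatment beyond what all mice received, namely IL-4 complexes (5 µg of IL-4 with 25 µg of anti-IL4) every other day from 4 days before harvest. All carried Cx3cr1CreERT2-IRES-EYFP/+ and Rosa26-stopfl-tdTomato/+, so tamoxifen marks with tdTomato the cells in which Cx3cr1 is active, and both alleles are heterozygous in every group. The labels give no age. Treatment and cell origin differ together and cannot be told apart.

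One merged peak list per group is analysed, so replicate error cannot be given, no test between groups is possible, and depth is unknown. The lists held 15552 converted, 33694 monocyte-derived and 24348 resident peaks, and each peak carries only a position and the authors' p-value. A region missing from a list can be closed, open in fewer of the cells, or open below detection, and these cannot be told apart.

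B7 ligands are surface proteins of antigen-presenting cells that set how a T cell responds to the peptide it recognises. CD80 and CD86 bind CD28, which promotes activation, and CTLA-4, which restrains it. PD-L1, encoded by Cd274, and PD-L2, encoded by Pdcd1lg2, bind the inhibitory receptor PD-1, and ICOS ligand, encoded by Icosl, binds ICOS on activated and helper T cells. In mouse macrophages Pdcd1lg2 is known to be induced by IL-4 through STAT6, Cd274 by interferon-gamma, and Cd80 and Cd86 by inflammatory stimuli.

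The RefSeq promoter table of GRCm38.p6, which gives 250 bases before and 50 bases after an annotated start, matched 4 of the 5 genes. Cd86 was the gene without a match. These 4 promoters are shown because they separate the family at the starts in that table. Of them, 1 held a peak in the converted and monocyte-derived lists, 2 in the monocyte-derived list alone, and 1 in no list. The annotated bodies of Cd80 and Cd274 begin 1.5 and 5.33 kb further upstream. A region called in all 3 lists lies 0.02 kb outside the Cd80 body and 0.12 kb outside the Cd274 body there. All 4 promoters lie on the plus strand and are written 5′ to 3′. Capitals mark the bases inside a deposited peak of any list in Icosl, Cd80 and Cd274, and in Pdcd1lg2, which has no such base, a match to the STAT6 motif.
Icosl, chr10:78069118-78069417: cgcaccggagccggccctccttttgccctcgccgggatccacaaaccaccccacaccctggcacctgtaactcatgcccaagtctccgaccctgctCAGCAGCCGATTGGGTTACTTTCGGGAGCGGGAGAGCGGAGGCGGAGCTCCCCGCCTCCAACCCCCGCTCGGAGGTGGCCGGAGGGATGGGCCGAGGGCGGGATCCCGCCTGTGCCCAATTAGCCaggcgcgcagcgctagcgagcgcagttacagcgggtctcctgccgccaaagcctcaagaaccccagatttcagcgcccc
Cd80, chr16:38458683-38458982: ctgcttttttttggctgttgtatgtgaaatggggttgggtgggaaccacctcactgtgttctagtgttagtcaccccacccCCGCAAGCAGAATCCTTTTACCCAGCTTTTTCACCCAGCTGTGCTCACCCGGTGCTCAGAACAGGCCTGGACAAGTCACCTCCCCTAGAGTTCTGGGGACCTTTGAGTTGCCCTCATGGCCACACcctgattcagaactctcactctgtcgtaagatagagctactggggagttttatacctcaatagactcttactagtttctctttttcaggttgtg
Cd274, chr19:29367188-29367487: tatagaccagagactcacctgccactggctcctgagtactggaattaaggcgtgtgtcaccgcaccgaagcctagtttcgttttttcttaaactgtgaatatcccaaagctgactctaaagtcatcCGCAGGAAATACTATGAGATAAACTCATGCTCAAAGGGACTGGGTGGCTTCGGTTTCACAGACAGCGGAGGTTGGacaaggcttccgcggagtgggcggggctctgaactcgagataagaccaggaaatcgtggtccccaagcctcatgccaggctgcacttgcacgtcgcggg
Pdcd1lg2, chr19:29410669-29410968: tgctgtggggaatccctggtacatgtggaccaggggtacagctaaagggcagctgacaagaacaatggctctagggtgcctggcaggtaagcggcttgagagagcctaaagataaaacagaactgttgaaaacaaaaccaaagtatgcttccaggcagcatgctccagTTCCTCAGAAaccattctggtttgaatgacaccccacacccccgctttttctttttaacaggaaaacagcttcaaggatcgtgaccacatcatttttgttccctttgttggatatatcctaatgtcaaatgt

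With the annotated start base numbered 0, the open bases ran from -154 to -30 in Icosl, from -169 to -45 in Cd80 and from -124 to -50 in Cd274. They therefore ended upstream of the start in all 3 promoters and covered 125, 125 and 75 of the 300 bases. The Icosl promoter is the richest of the 4 in G and C, at 68.0%, with 26 CG pairs, against a median of 53.0% and 7 pairs over all 32619 promoters of the table. Cd274 had 52.7% G and C with 15 CG pairs, Cd80 49.7% with 3, and Pdcd1lg2 46.0% with 3. Of the 21045 promoters of protein-coding genes, 26.0% held a converted, 39.5% a monocyte-derived and 32.6% a resident peak. Among the 4 members, at the starts in the table, the counts were 1, 3 and 0. A promoter peak in the monocyte-derived list alone, as at Cd80 and Cd274, was found at 7.36% of these promoters.

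Motifs of 7 factors or families were searched on both strands of the 4 promoters, and 2 matches were found. The AP-1 motif, TGANTCA, matched in Cd80 at -42 to -36, just downstream of the last open base, and 7.85% of all promoters hold it. The STAT6 motif, TTC and GAA with 4 free bases between them, matched in Pdcd1lg2 at -82 to -73, and 6.99% of all promoters hold it. Neither match overlaps a peak or another motif's match. The other motifs were STAT (TTC and GAA with 3 free bases between, in 8.34% of promoters), NF-kappaB (GGGA and TTTCC with 1 free base between, 0.414%), IRF (GAAA repeated with 2 free bases between, 3.46%), PU.1 (GAGGAAG, 13.4%) and C/EBP (TTGCNNAA, 10.9%). Their absence from the 4 promoters says only that these letters are not in those windows.

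Of the 21 regions, converted cells had 5, monocyte-derived cells all 21 and resident cells 7. Across the genome 85.5% of regions were called in the monocyte-derived list, which is the longest. Of all 36843 regions, 12953 were called in the converted list and 20404 in the resident list. Called in the monocyte-derived list alone were 13 of the 21 regions, against 39.5% of all regions. A further 4 were in all 3 lists, 3 in the monocyte-derived and resident lists, and 1 in the converted and monocyte-derived lists. These classes hold 28.1%, 14.4% and 3.56% of all regions. None was converted-only, resident-only or shared by those 2 lists alone, classes that hold 1.55%, 11.0% and 1.94% of all regions.

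By gene, all 5 members had fewer converted than monocyte-derived regions, as did 74.1% of the 13219 genes with a region in either list. All 5 also had more monocyte-derived than resident regions, against 55.4% of 13680 genes. Between converted and resident cells the members did not move one way. Fewer converted than resident regions were found at 1 member, Cd86, against 52.5% of 12024 genes. More were found at 1, Icosl, against 961 of the 12024 genes, and equal numbers at the other 3. The median difference over the 5 genes was -2 regions for converted minus monocyte-derived, 0 for converted minus resident and 2 for monocyte-derived minus resident. Over all 13730 genes with a region the medians were -1, 0 and 1.

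The monocyte-derived excess was smaller at equal list lengths. When each list was cut to its 15552 strongest peaks by p-value, the members had 5 converted, 6 monocyte-derived and 4 resident regions. Then 2 members, Cd80 and Icosl, had more converted than monocyte-derived regions, against 25.4% of 11274 genes, and 1, Cd86, had fewer, against 36.9%. More monocyte-derived than resident regions were left at Cd86 alone, against 36.6% of 11736 genes. Many peaks share the p-value at which a list was cut, and the sums were 5, 7 and 4 with all such ties kept and 5, 6 and 3 with all dropped, a check added after seeing the data. Length and stringency changed together here and cannot be told apart, since the reduction kept monocyte-derived peaks up to a caller value of 3.02e-06, resident peaks up to 8.27e-06 and converted peaks up to 9.72e-06. With all peaks of p at most 1e-05 the counts were 5 converted, 20 monocyte-derived and 5 resident regions.

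**Figure D1:**
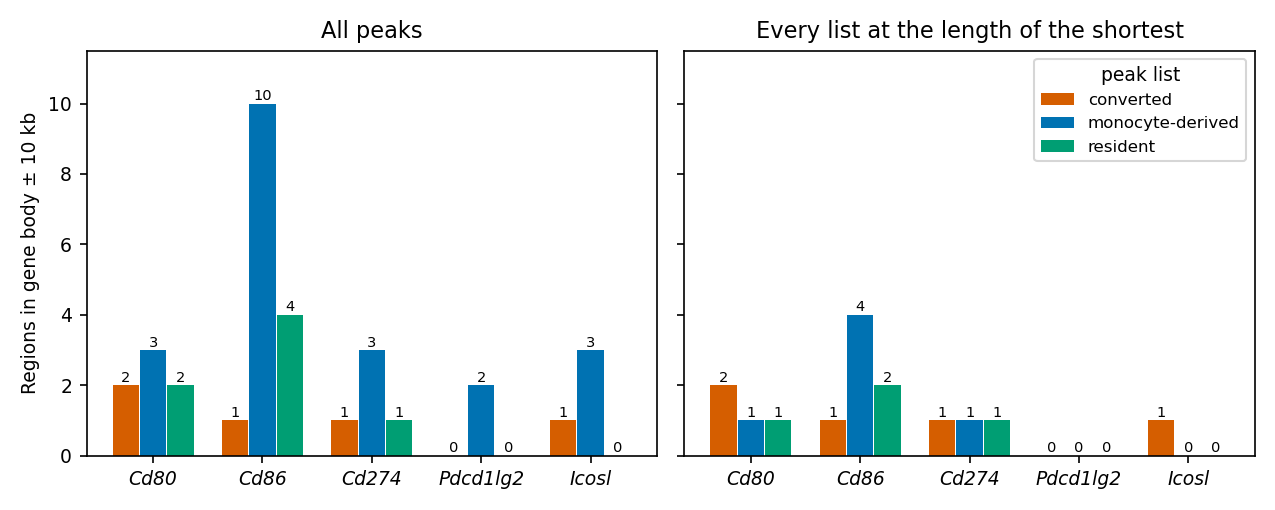
Number of regions (y axis) in the windows, gene body ± 10 kb, of the 5 B7 ligand genes (x axis) in the converted, monocyte-derived and resident peak lists, 1 merged list per group and no error. With all peaks (left) the monocyte-derived bar is the tallest for each gene, 10 at Cd86; with each list cut to 15552 peaks (right) the Cd86 bars are 1, 4 and 2 and those of the other genes are at most 2.

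Cd86, the main early ligand of CD28 on activated antigen-presenting cells, had the most regions of the family. Its window on chromosome 16 (gene ID 12524, 36568956 to 36666158) held 1 converted, 10 monocyte-derived and 4 resident regions, all within the gene body. The annotation used gives gene ends but no exons, so exonic or intronic position is not stated. Only 207 genes, 1.51% of those with a region, had at least 10 monocyte-derived regions. Of these 207, 14 (6.76%) had no more than 1 converted region, and 63 (30.4%) had no more than 4 resident regions.

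The Cd86 regions were unevenly placed. Distances are from the gene end of higher coordinate to the middle of each region. Regions called in the monocyte-derived list alone lay 0.34, 10.07, 20.34, 20.88, 24.93 and 33.81 kb from that end. The monocyte-derived and resident lists alone shared regions 0.11, 29.23 and 67.77 kb from it. Beyond 67.77 kb and in the 10 kb on either side of the gene no list had a call.

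One Cd86 region, chr16:36626839-36627188, was called in all 3 lists, 39.14 kb from the same end. It was also the widest of the family, at 350 bp. In converted cells 2 overlapping peaks made up the call, with a best caller p-value of 6.93e-06, which 88.5% of converted peaks equal or beat. The monocyte-derived peak covered all 350 bp and stood at the smallest p-value the authors' lists hold, 1e-12, as did 18.5% of monocyte-derived peaks. The resident peak of 275 bp had 1.31e-05, which 97.6% of resident peaks equal or beat. The site was thus among the weaker calls of the converted list and among the weakest of the resident list. In the monocyte-derived list it was among the many peaks tied at the smallest value. P-values are not comparable between lists of unknown depth.

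At the gene end itself, the region chr16:36665964-36666138 had a monocyte-derived peak with a caller value of 2.07e-07 and a resident peak with 6.37e-06. No converted peak was called there. Cd86 has no start in the promoter table, so this region is not in the promoter counts above. At equal list lengths Cd86 had 1 converted, 4 monocyte-derived and 2 resident regions. The resident peak at 29.23 kb stood at the p-value of the cut, and with tied peaks dropped the resident list had 1. The 2 resident ones were the region at the gene end and that at 29.23 kb, both also in the shortened monocyte-derived list, while the region at 39.14 kb was then shared by the converted and monocyte-derived lists.

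**Figure D2:**
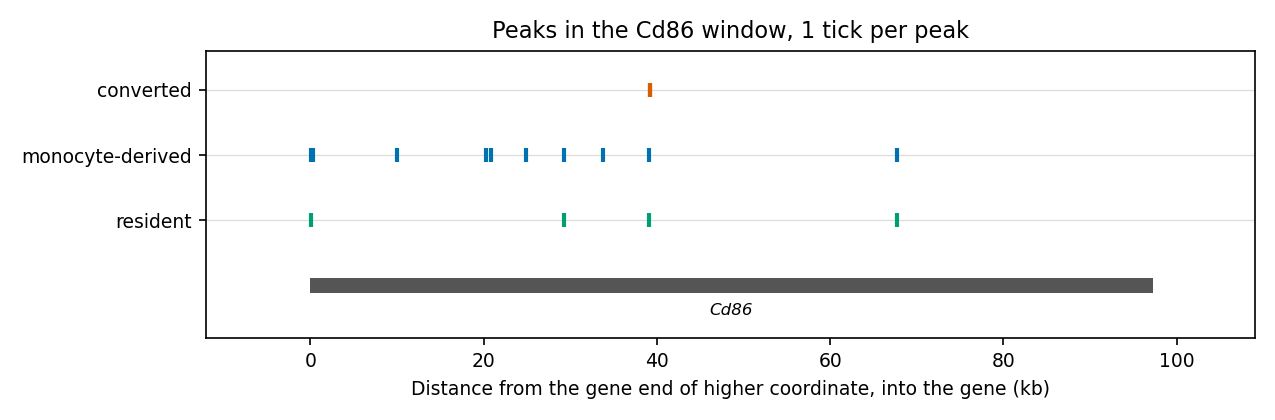
Positions of the deposited peaks in the Cd86 window, in kb from the gene end of higher coordinate into the gene (x axis), by peak list (rows), with the gene body as a dark bar; each tick is 1 peak, drawn wider than its true width. The 10 monocyte-derived peaks spread over 67.77 kb, the 4 resident peaks fall at 4 of the same places, and the 2 overlapping converted peaks at 39.14 kb show as 1 mark.

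Cd80 binds the same receptors as Cd86 and had 2 converted, 3 monocyte-derived and 2 resident regions (chromosome 16, gene ID 12519, 38457430 to 38495958). Nothing was called inside the gene beyond its promoter. The region in all 3 lists with the smallest p-values, chr16:38452564-38452863, lies 4.57 kb outside Cd80, across an end of the neighbouring gene Adprh. Its p-values were 1.51e-06 in converted, 1e-12 in monocyte-derived and 1.5e-06 in resident cells. When regions were assigned by the closest gene end in place of the window, that one went to Adprh, and Cd80 was left with 1 converted, 2 monocyte-derived and 1 resident region.

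The second Cd80 region of all 3 lists, chr16:38457239-38457413, lies 1.61 kb upstream of the RefSeq start printed above. It is 0.02 kb outside the lowest annotated coordinate, which is the upstream end of this plus-strand gene. Its calls were weak: best p-values were 5.61e-06 in converted, 6.73e-06 in monocyte-derived and 1.18e-05 in resident cells, at which 77.2%, 81.3% and 90.4% of each list stood as low or lower. The third, chr16:38458764-38458888, is the promoter peak in capitals above. It was monocyte-derived only, with a caller value of 7.89e-06, and fell away at equal list lengths, where Cd80 had 2 converted, 1 monocyte-derived and 1 resident region.

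Icosl was the member in which the converted list had a promoter call and the resident list had none (chromosome 10, gene ID 50723, 78069368 to 78079525). Its window held 1 converted, 3 monocyte-derived and 0 resident regions. The converted peak, chr10:78069214-78069338, and the monocyte-derived peak, chr10:78069239-78069338, end at the same base, 0.03 kb outside the gene, and make up the capitals of the Icosl promoter. Their p-values, 4.7e-06 and 4.1e-06, were equalled or beaten by 63.2% of converted and 61.3% of monocyte-derived peaks. The peaks also lie in the long non-coding RNA gene Gm51775, which overlaps this end of Icosl.

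The other 2 Icosl regions were monocyte-derived only and lay past the far end of the gene, at chr10:78086764-78086913 and chr10:78087164-78087363, 7.24 and 7.64 kb outside it. At equal list lengths the converted promoter call was the only region left. Within 50 kb the resident list had 1 region, in the body of Aire.

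**Figure D3:**
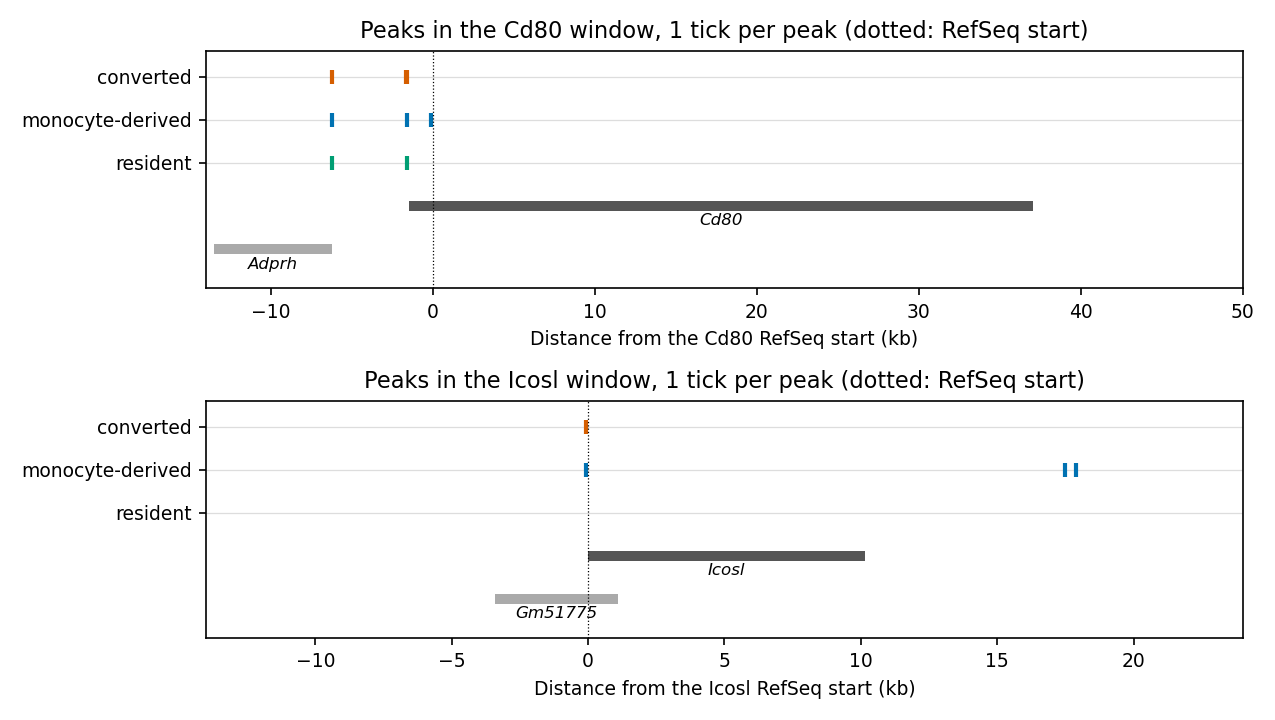
Positions of the deposited peaks around Cd80 (top) and Icosl (bottom), in kb from each gene's RefSeq start (x axis), by peak list (rows); dark bars are the member genes, grey bars the overlapping or neighbouring genes Adprh and Gm51775, and each tick is 1 peak drawn wider than its true width. The resident row has no mark around Icosl. At the Cd80 RefSeq start (dotted line) the monocyte-derived row alone has a mark, while at the upstream end of the Cd80 bar every row has one.

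Cd274 and Pdcd1lg2, which encode the 2 ligands of PD-1, lie 22.8 kb apart on chromosome 19. Cd274 (gene ID 60533, 29362107 to 29388095) had 1 converted, 3 monocyte-derived and 1 resident region. Pdcd1lg2 (gene ID 58205, 29410919 to 29472927) had 0 converted, 2 monocyte-derived and 0 resident regions. The converted and resident lists therefore had a single region between the 2 genes, the same one.

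That region, chr19:29361789-29361988, was called in all 3 lists, 5.55 kb upstream of the Cd274 start printed above. It overlaps the RefSeq promoter of Plgrkt, a gene on the opposite strand that encodes a plasminogen receptor. The Plgrkt start of that promoter lies 5.57 kb from the Cd274 start. The shared region is also 0.12 kb outside the lowest annotated coordinate of Cd274, the upstream end of that plus-strand gene. It so lies near an annotated start or end of both genes. Its p-values were 8.22e-06 in converted, 1.52e-06 in monocyte-derived and 3.93e-06 in resident cells, and it stayed in each list at equal lengths.

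The Cd274 promoter peak itself, chr19:29367314-29367388, was 75 bp wide and monocyte-derived only. Its caller value was 7.89e-06, which 90.3% of monocyte-derived peaks equal or beat. A second monocyte-derived-only region, chr19:29383489-29383613, lay 16.11 kb downstream of the start, in the bodies of both Cd274 and the long non-coding RNA gene Gm36043. Neither was left at equal list lengths. The promoter peak also lies just beyond 29367292, the upstream end of Plgrkt as annotated. By closest gene end it went to Plgrkt, and Cd274 had 1 converted, 2 monocyte-derived and 1 resident region.

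In Pdcd1lg2 the 2 regions, chr19:29419514-29419688 and chr19:29462564-29462688, lay inside the gene, 8.68 and 51.71 kb downstream of the start. The second was made of 2 overlapping monocyte-derived peaks of 75 bp each. Their best p-values, 4.1e-06 and 3.02e-06, were near the middle of the monocyte-derived list, at 61.3% and 48.1% of its peaks. No list had a peak in the Pdcd1lg2 promoter, which holds the STAT6 motif match, and at equal list lengths no region was left in the window. The second region stood at the p-value of that cut, and with all tied peaks kept Pdcd1lg2 had 1 monocyte-derived region. When regions were assigned by the closest gene end in place of the window, Pdcd1lg2 had 1 converted, 4 monocyte-derived and 1 resident region, the additions lying beyond the 10 kb window.

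**Figure D4:**
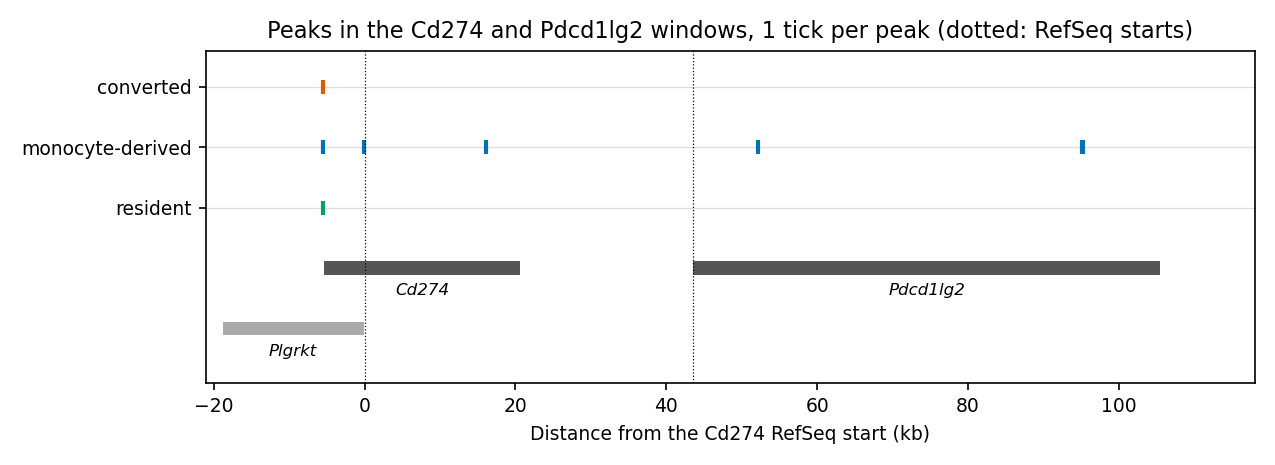
Positions of the deposited peaks in the Cd274 and Pdcd1lg2 windows, in kb from the Cd274 RefSeq start (x axis), by peak list (rows); dark bars are the 2 member genes, the grey bar is Plgrkt, dotted lines mark RefSeq starts, and each tick is 1 peak drawn wider than its true width. The converted and resident rows have 1 mark each, near the Plgrkt start, and the remaining marks are monocyte-derived.

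Per length of window, the order of the genes changed. In the monocyte-derived list Icosl had 0.995 regions per 10 kb of window, Cd86 0.853, Cd274 0.652, Cd80 0.513 and Pdcd1lg2 0.244. The median over genes with a region was 0.417. In the converted list the values were 0.342 for Cd80, 0.332 for Icosl, 0.217 for Cd274, 0.0853 for Cd86 and 0 for Pdcd1lg2, with a median of 0.18. In the resident list they were 0.342 for Cd80, 0.341 for Cd86, 0.217 for Cd274 and 0 for Pdcd1lg2 and Icosl, with a median of 0.289. Cd86 thus stood below Icosl alone in the monocyte-derived list and above Pdcd1lg2 alone in the converted list. With counts of 0 to 10 regions and 1 list per group, no neighbours in these orders can be told apart by a test.

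Strength of call and sharing went together in the 5 windows, as they did over all monocyte-derived regions. Each of the 21 regions was ranked by the best p-value of its monocyte-derived peaks, as the percentage of that list with a p-value as small or smaller. Of the 8 regions shared with another list 5 ranked in the lower 50%, with a median rank of 35.85% and a range of 18.5% to 85.2%. Of the 13 monocyte-derived-only regions 2 did, 1 in Cd86 and 1 in Pdcd1lg2, with a median of 74.4% and a range of 41.4% to 100%. Across the genome 64.7% of shared and 36.4% of monocyte-derived-only regions ranked in the lower 50%, with median ranks of 33.5% and 67.0%. The members' monocyte-derived peaks had a median width of 175 bp where shared and 125 bp where not.

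**Figure D5:**
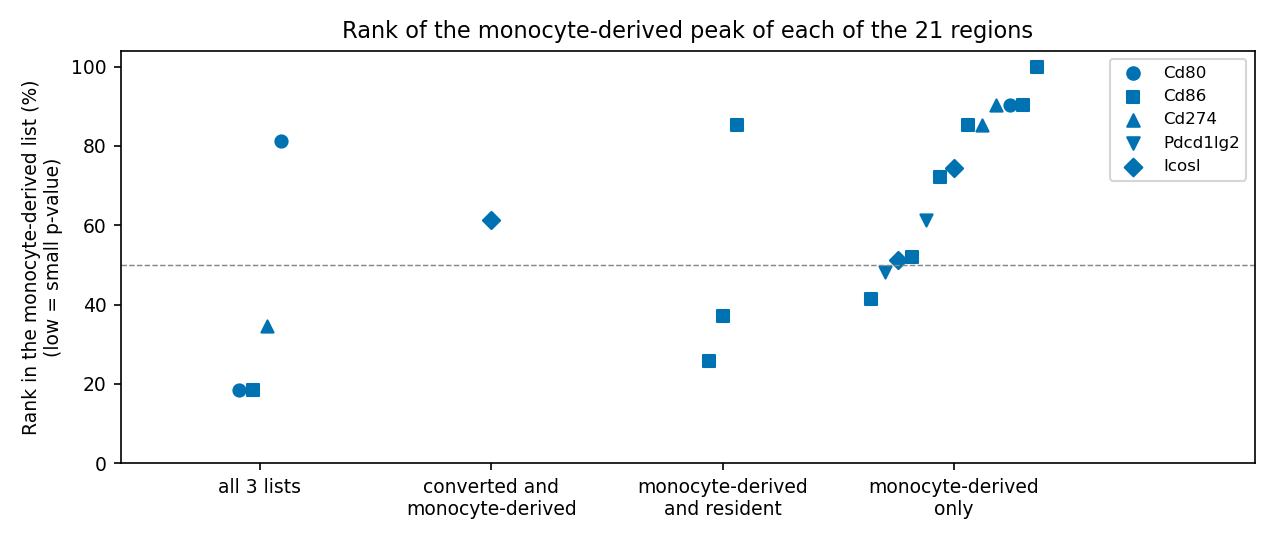
Rank of the strongest monocyte-derived peak of each of the 21 regions within its list (y axis, percentage of the list with a p-value as small or smaller), by the lists that call the region (x axis) and by gene (marker shape); the dashed line is at 50%. Of the regions called in all 3 lists 1 lies above the line, the second Cd80 region, and of the 13 monocyte-derived-only regions 2 lie below it.

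The genes most like Cd86 in their 3 counts were Srgn, which encodes the proteoglycan serglycin, with the same 1 converted, 10 monocyte-derived and 4 resident regions, Msr1, a macrophage scavenger receptor gene, with 1, 10 and 3, and Tgfbr2, a receptor gene of transforming growth factor beta, with 2, 10 and 4. Likeness is the sum of absolute differences over the 3 lists, which differ in length for every gene alike. For the other members the counts are too small to single out genes. Exactly the counts of Cd80 were found at 280 genes, those of Cd274 at 331 and those of Icosl at 40. Nearest in window length were Gna13, Kat7 and Ipo7 for Cd80, Adnp, Trpv2 and Kif19a for Cd274, and, among others, Parp10 and Tnfsf12 for Icosl.

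Among the receptors that B7 ligands bind, which T cells display, Cd28 had no region in any list. Pdcd1, the PD-1 gene, had 2 converted, 3 monocyte-derived and 3 resident regions. Ctla4 had 1 monocyte-derived region alone and Icos 1 resident region alone. Of other B7 molecules, Vsir, which encodes the inhibitory ligand VISTA, had 0 converted, 5 monocyte-derived and 3 resident regions, Cd276 (B7-H3) had 1 monocyte-derived region and Vtcn1 (B7-H4) had none. Hhla2 and Ncr3lg1, which were also listed, were not analysed here.

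Among 18 other costimulatory and coinhibitory molecules, of which 16 had a region, 10 had fewer converted than monocyte-derived regions and none had more. Fewer converted than resident regions were found at 10 and more at 1. More monocyte-derived than resident regions were found at 8 and fewer at 3. Over all genes with a region in either list, 74.1% had fewer converted than monocyte-derived regions. Fewer converted than resident were found at 52.5%, and more monocyte-derived than resident at 55.4%. The opposite directions were found at 392 of 13219, 961 of 12024 and 1641 of 13680 genes. Sirpa, the receptor for the CD47 signal that restrains phagocytosis, had 2 converted, 9 monocyte-derived and 4 resident regions, Nectin2 2, 4 and 4, and Havcr2 (TIM-3) 2, 4 and 3. Tnfsf15 and Cd70 had none.

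The 16 genes listed as upstream signalling and transcription factors had a converted region in 13 cases, a monocyte-derived region in all 16 and a resident region in 15. Among all 13730 genes with a region the numbers were 9344, 13016 and 11686. Fewer converted than monocyte-derived regions were found at 14 and fewer converted than resident regions at 9, with none higher. More monocyte-derived than resident regions were found at 10 and fewer at 2. The genome shares for fewer converted than monocyte-derived, fewer converted than resident and more monocyte-derived than resident were 74.1%, 52.5% and 55.4%. In the opposite directions the genome counts were 392 of 13219, 961 of 12024 and 1641 of 13680 genes. Nfkb1, an NF-kappaB subunit gene, had 1 converted, 12 monocyte-derived and 2 resident regions, Jak1, a kinase gene of cytokine receptors, 2, 9 and 3, and Il4ra, the IL-4 receptor alpha gene, 3, 6 and 5. The median difference over the 16 genes was -2 for converted minus monocyte-derived, -1 for converted minus resident and 1 for monocyte-derived minus resident.

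The sorted cells were checked against markers. Of 7 macrophage markers the converted list had a region at 2, Csf1r and Cd68, and the monocyte-derived and resident lists at all 7. Of all 13730 genes with a region, 9344 had a converted, 13016 a monocyte-derived and 11686 a resident one. The part of list length in the marker counts was not tested. Of 5 large peritoneal macrophage markers 2 had a converted, 1 a monocyte-derived and 4 a resident region. Of the B cell markers, Ms4a1 and Pax5 had none in any list, Cd79a had 2 converted, 2 monocyte-derived and 1 resident region, and Cd79b had 1 monocyte-derived region. The T cell markers Cd3e, Cd4 and Cd8a had none in any list, and Cd3d and Cd3g, whose windows share 1 region, had monocyte-derived ones only. Dendritic cells also display B7 ligands, and 5 dendritic cell markers had 4 converted, 16 monocyte-derived and 8 resident regions in sum. Of these, Zbtb46 had 4, 7 and 4, Xcr1 0, 4 and 2, Flt3 and Itgax 0, 2 and 0 each, and Dpp4 0, 1 and 2. The sums stand in the same order as those of the B7 genes. That is also the order of the list lengths and of the sums over all genes with a region. Those were 15791 converted, 36323 monocyte-derived and 24018 resident. The part of dendritic cells in the result was not tested.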

How the data were processed

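Per the submitters' processing notes, Bowtie2 2.2.9 was used and the build was mm10 (GRCm38). How peaks were called, whether reads were shifted for Tn5, and how duplicates and replicates were handled is not stated there. The labels credit each of the 3 deposited lists to all 3 samples of a group, and each gives positions and a p-value per peak as the authors deposited it, with a floor of 1e-12 and widths in steps of 25 bp. The lists' names carry 1e-05, which 0 converted, 1267 monocyte-derived (3.76%) and 5476 resident peaks (22.5%) exceed.

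Peaks sharing at least 1 bp were joined, and regions were counted per gene body and 10 kb on each side, for all 21631 protein-coding genes of RefSeq GRCm38.p6. P-values only rank or filter peaks within a list. No test was made. Motif shares are over 32619 promoters. On simulated lists all 9294 regions and the counts of all 2385 genes were recovered. Named were the members, genes in their windows that bear on a region, the 3 genes with the most regions, and those with none, of the receptor, B7, costimulatory and upstream lists, and the 3 most like each member with at least 3 regions. Members and lists were chosen with earlier results of these data known. RNA-seq was not analysed here, and 2 genes are not reported here. Software: pandas 2.3.3 and numpy 2.4.6 under Python 3.11.15, figures with matplotlib 3.10.9.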

Additional observations from a re-analysis of the deposited data

How the results depend on the processing

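Depth is unknown and limits every missing call. Over the 13 alternatives run, the 5 genes had fewer converted than monocyte-derived and more monocyte-derived than resident regions in each of the 13, but their size did not hold under all; for converted minus resident the sign was negative in 7 and positive in 3. Converted minus monocyte-derived, -16 with all peaks, became -1 at equal list lengths, -2 at p at most 1e-10 and -6 in the stronger 50% of each list. Monocyte-derived minus resident, 14 with all peaks, became 2, 2 and 5 under the same settings. Converted minus resident, -2 with all peaks, turned to 1 at equal list lengths, and was 0 at p at most 1e-10, 0 at p at most 1e-05, 0 when peaks replaced regions, -1 in the stronger 50% and -6 with 50 kb windows. Cd80 and Icosl each turned to 1 for converted minus monocyte-derived at equal list lengths, which removes peaks from the monocyte-derived and resident lists only. With tied peaks at the cut of equal lengths all kept or all dropped, added after seeing the data, the 3 sums were -2, 1 and 3 or -1, 2 and 3, and Cd80 and Icosl were again at 1. Of the differences of single genes, 117 were within 1.5 times the reported value, 72 were not and 6 reversed. Requiring overlap over 50% of the shorter peak, joining within 200 bp, windows of 0 and 5 kb and nearest gene ends kept the 3 sums within 1.5 times. No paired analysis was possible because the replicates numbered in the labels share 1 merged list per group, and leaving out replicates was not run for the same reason.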

Other observations

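Beyond the 10 kb windows, further calls lay past the far end of Pdcd1lg2. A region called in all 3 lists, chr19:29486564-29486938, lay 13.6 kb from the gene and in no annotated gene body. Its best p-values were 3.7e-07 in converted, 1.93e-07 in monocyte-derived and 4.69e-06 in resident cells. The converted value was smaller than any converted value inside the 5 windows, of which the smallest was 1.51e-06 at Adprh, next to Cd80. A monocyte-derived-only region, chr19:29488539-29488688, lay 15.6 kb from the gene. With 50 kb on each side Pdcd1lg2 had 3 converted, 8 monocyte-derived and 3 resident regions, against 0, 2 and 0 within 10 kb. Of the added ones, 1 in each list is the region at the Plgrkt promoter, 1 in each list lies at the promoter of Ric1, and 2 monocyte-derived ones lie in Cd274. These sites were picked after their values were seen.

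Around Cd86 a resident-only region, chr16:36531264-36531388, lay 37.6 kb from the gene in the body of Casr, and 3 monocyte-derived regions, 2 of them also resident, lay 43.4 to 48.1 kb from the other end in the body of Ildr1. The converted list had no further call within 50 kb of Cd86.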
